A study of Mus musculus with 4 samples.

Results

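Regulatory T (Treg) cells are CD4+ T cells that express the transcription factor Foxp3 and restrain immune responses. The 10 genes described here encode brakes on mitogen-activated protein (MAP) kinase signalling: the phosphatase genes Dusp1, Dusp2, Dusp4, Dusp5, Dusp6 and Dusp10, the Sprouty genes Spry1 and Spry2, and the Sprouty-related genes Spred1 and Spred2. The genes were chosen by name, with earlier results of these data known. Each was matched to the row of that name in the deposited table, which held all 10 among its 24346 gene rows. The study set 2 libraries of Tcf1/Lef1-deficient Treg cells (labelled Tcf1-/-Lef1-/-, called dKO here) against 2 libraries of wild-type Treg cells (WT). Tcf1 (gene Tcf7) and Lef1 are related DNA-binding proteins of T cell development and Wnt signalling. All cells were Thy1.2+ CD4+ and positive for the Foxp3-Cre-GFP reporter, from spleens of male mice aged 16 weeks. Mice of both groups carried Foxp3-Cre, and the dKO mice also carried floxed alleles of both genes, so Cre is made where Foxp3 is expressed. No value here shows how many sorted cells lost the alleles. The table's library columns end in 0 and 1 and cannot be tied to the titled replicates, so the libraries are called dKO_0, dKO_1, WT_0 and WT_1. Whether each library came from its own animal is not labelled, and the spread behind every p-value here may therefore be technical.

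MAP kinases (ERK, JNK and p38) carry signals from surface receptors, the T cell antigen receptor among them, to the nucleus, and are switched on by phosphorylation of a threonine and a tyrosine in one loop of the kinase. The DUSP phosphatases of the MAP kinase phosphatase family remove both phosphates, and many of their genes are themselves induced by MAP kinase activity, which closes a feedback loop. Sprouty and Spred proteins act further upstream, where they limit signalling from receptors through Ras and Raf to ERK, and Spred proteins bind the Ras inhibitor neurofibromin.

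The sequenced RNA is given as FPKM, fragments per kilobase of transcript scaled to the mapped fragments of a library, so levels can be compared between genes per length. Low FPKM values, taken as worth 1 fragment, put the libraries at about 22200000 (dKO_0), 23800000 (dKO_1), 18600000 (WT_0) and 22200000 (WT_1) mapped fragments. Only values giving a depth inside a range set in advance were used, so these depths are rough. Pearson's r of log2(FPKM + 1) over the rows tested was 0.961 between the dKO libraries and 0.932 between the WT libraries, and WT_1 stood nearer to dKO_0 (0.953) than to WT_0. Both targeted genes had their lowest values in dKO: Tcf7 had 247 and 249.6 FPKM in dKO, against 345 and 309 FPKM in WT, and Lef1 had 41.3 and 36.0 FPKM in dKO, against 59.9 and 66.5 FPKM in WT (limma adjusted p = 0.158 and 0.113). A gene-level FPKM counts exons outside the floxed part too and does not measure the deletion. Foxp3, the Treg lineage factor, had 133 and 144 FPKM in dKO, against 113 and 121 FPKM in WT. Markers of other cells differed among the libraries. The 10 monocyte and macrophage markers summed to 410 and 361 FPKM in dKO, against 427 and 557 FPKM in WT_0 and WT_1, with 10 of 10 highest in WT_1 and 10 of 10 lower in dKO by group mean. The 7 neutrophil markers in the table summed to 66.0 and 104 FPKM in dKO, against 329 and 82.6 FPKM in WT. The 10 B cell markers summed to 133 and 202 FPKM in dKO, against 137 and 52.4 FPKM in WT, and 10 markers of dividing cells summed to 458 and 469 FPKM in dKO, against 352 and 270.2 FPKM in WT. The 7 NK cell markers summed to 17.4 and 17.5 FPKM in dKO, against 23.4 and 27.8 FPKM in WT. Of the 6 NK cell markers tested, 5 were lower and 1 higher in dKO. No marker of these 5 lists was at 0 in all libraries. In bulk RNA, a change in how many cells of a type are present and a change in RNA per cell cannot be told apart.

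Dusp1, Dusp2, Spred2 and Spry1 RNA was lower in each dKO library than in either WT library, and Dusp5 and Dusp6 RNA was higher. For Dusp2 and Dusp5 the gap to WT_1 was small. None of these differences passed the test over all genes. The test was limma on log2(FPKM + 1) for the 11595 rows that reached 1 FPKM in 2 or more libraries, and a row was called at a Benjamini-Hochberg adjusted p under 0.05. Of the 10 genes, 9 entered this test and Spry2 did not reach the filter. Limma called 0 of the 9, beside 0.345% of all rows tested (0.181% higher and 0.164% lower). With an unadjusted p under 0.05 there were 4 of the 9, beside 16.7% of all rows: 3 were lower (7.08% of all rows) and 1 higher (9.64% of all rows). The libraries of the 2 groups did not overlap for 6 of the 9, beside 51.2% of all rows. Of these 6, 4 were lower in dKO (23.4% of all rows were) and 2 higher (27.8% of all rows were), so non-overlap was common in this table. Of the 9, 7 were lower and 2 higher in dKO, with a median log2 difference of -0.14. Over all rows tested, 47.2% were lower, and the median difference was 0.012.

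**Figure D1:**
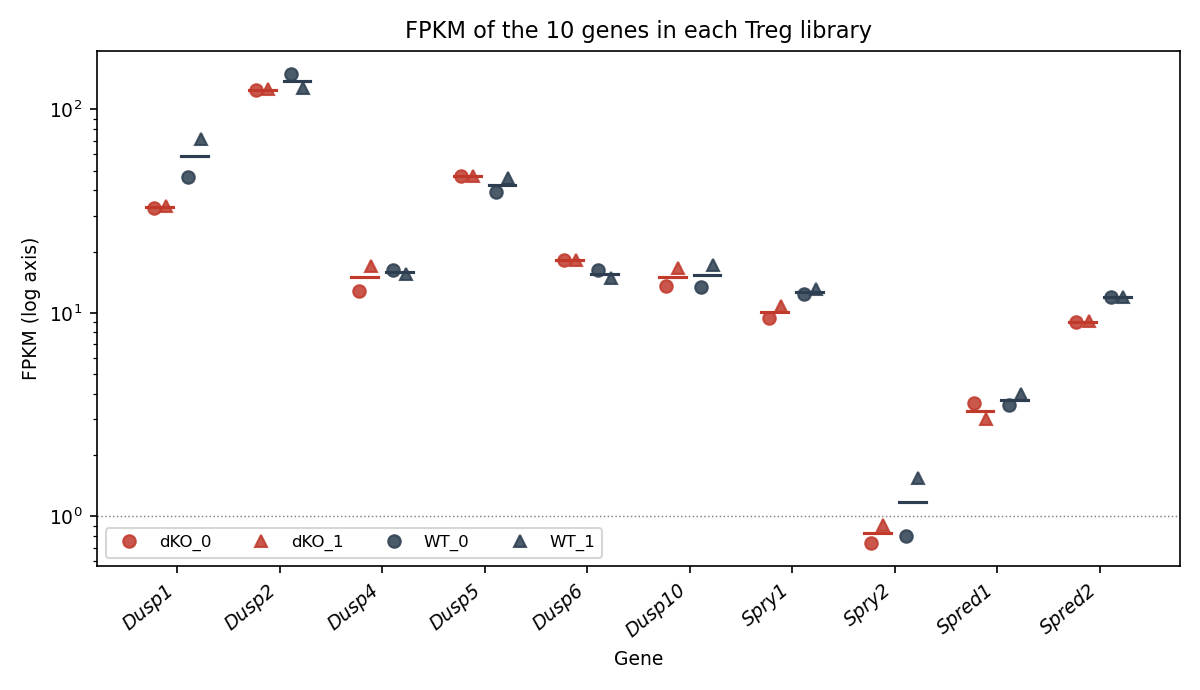
FPKM (log axis) of each gene in dKO_0 and dKO_1 (red circle and triangle) and in WT_0 and WT_1 (dark circle and triangle), with a bar at each group's mean (n = 2) and a dotted line at the filter of 1 FPKM. Dusp2 stood highest, at 124 to 149 FPKM, Spry2 lowest, near 1 FPKM, and Dusp1 shows the widest gap between groups.

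Dusp1 encodes MKP-1, a nuclear phosphatase of p38 and JNK that is made within minutes of many stimuli. It lies on chromosome 17 (chr17:26505591-26508472, minus strand, GRCm38, RefSeq). Dusp1 had 32.9 FPKM in dKO_0 and 33.7 FPKM in dKO_1, against 46.5 FPKM in WT_0 and 71.5 FPKM in WT_1. Both dKO libraries were below both WT libraries, and the dKO values lay close together, while WT_1 was 1.54 times WT_0. The group means were 33.3 ± 0.563 FPKM in dKO and 59.0 ± 17.7 FPKM in WT (SD, n = 2 each). The log2 difference was -0.78 (SE 0.214, 95% interval -1.35 to -0.20, limma adjusted p = 0.218). This was the largest difference among the 9 genes, at percentile 1.32 of all rows tested from the lowest, and limma did not call it. Without WT_0 the difference was -1.08 and limma called it (adjusted p = 0.0179, with 1.55% of rows called in that fit), while without WT_1 it was -0.47 and not called (adjusted p = 0.0603, with 1.9% of rows called). Each of these fits leaves 1 WT library, which is assumed to vary like the dKO libraries. In the other 11 alternative fits Dusp1 was not called. The rows called there made up 0.0175% without dKO_0 and 0.0175% without dKO_1, 1.64% with small RNA rows left out, 0.0908% with no filter and 0.435% with a filter at 5 FPKM. They made up 0.345% with a pseudocount of 0.1, 0.319% with quantile normalization, 0.362% with median centring, 0.267% without the intensity trend, 0.0604% with the column suffix as a block and 0.19% with the suffixes crossed. In the authors' deposited table Dusp1 had a log2 fold change of -0.83 with a q of 0.00365 and was listed as lower. It was the 1 gene of the 10 on the authors' lists, where 1.21% of all rows tested were listed as lower and 1.56% as higher. A q under 0.05 in the authors' deposited table was held by 3.06% of those rows (1.71% higher and 1.35% lower). WT_1, the library with the most Dusp1 RNA, also had the highest sum of monocyte and macrophage markers, 1.30 times that of WT_0. Its sum of NK cell markers was the highest too, with 4 of the 7 markers highest in WT_1. Its sums of B cell and dividing cell markers were the lowest, as was that of erythroid markers (5.97 FPKM, against 71.3 FPKM in WT_0). The part of any of these cells in the difference was not tested.

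The promoter windows of RefSeq (GRCm38.p6, 250 bases before to 50 after the start of the gene) matched 9 of the 10 genes and were searched on both strands for motifs that bind factors of these pathways. The windows of Dusp1, Dusp5 and Spry2 are shown in part because these 3 alone held a match. For Dusp1 the bases from -250 to -51 are given (chr17:26508523-26508722, minus strand), with the cyclic AMP response element in capitals. For Dusp5 the bases from -107 to -38 are given (chr19:53529038-53529107, plus strand), with a pair of adjoining CArG boxes, the element bound by serum response factor, in capitals. For Spry2 the bases from -162 to -106 are given (chr14:105896925-105896981, minus strand), with the TCF/LEF match in capitals. Each is written 5′ to 3′ on the strand of the gene.
Dusp1: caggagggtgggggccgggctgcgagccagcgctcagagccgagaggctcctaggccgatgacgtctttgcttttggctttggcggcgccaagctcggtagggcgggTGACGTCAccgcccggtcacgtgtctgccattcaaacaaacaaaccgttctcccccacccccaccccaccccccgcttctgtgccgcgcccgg
Dusp5: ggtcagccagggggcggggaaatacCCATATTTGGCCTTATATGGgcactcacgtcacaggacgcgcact
Spry2: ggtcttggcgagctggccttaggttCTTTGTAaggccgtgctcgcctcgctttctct

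The cyclic AMP response element, searched as TGACGTCA, was in 1 of the 9 windows (Dusp1, bases -143 to -136) and in 1.79% of all 32851 promoter windows. The CArG box was in 1 of 9 (Dusp5, bases -82 to -73 and -72 to -63) and in 1.63% of all windows. The TCF/LEF motif, searched as AACAAAG and the same letters with AT, TA or TT as the first pair, was in 1 of 9 (Spry2, bases -137 to -131 on the opposite strand) and in 16.9% of all windows. The AP-1 motif TGANTCA and the ETS motif CCGGAAG were in 0 of the 9, and in 7.81% and 8.86% of all windows. These letter matches describe the windows and do not show that a factor binds there.

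Dusp2 encodes PAC-1, a nuclear phosphatase found mainly in blood cells and induced on lymphocyte activation. It lies on chromosome 2 (chr2:127336159-127338377, plus strand). Dusp2 had 124 FPKM in dKO_0 and 125 FPKM in dKO_1, against 149 FPKM in WT_0 and 127 FPKM in WT_1. It was the most abundant of the 10 genes in both groups. Both dKO libraries were below both WT libraries, but WT_1 lay much nearer to the dKO libraries than to WT_0. The log2 difference was -0.14 (SE 0.0943, 95% interval -0.39 to 0.12, limma adjusted p = 0.511). Without WT_0 the difference was -0.023, and without WT_1 it was -0.25. The interval leaves room for a loss of up to 0.39 on the log2 scale, so equal levels are not shown.

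Dusp4 encodes MKP-2, a nuclear phosphatase close in sequence to Dusp1. It lies on chromosome 8 (chr8:34807610-34819894, plus strand). Dusp4 had 12.9 FPKM in dKO_0 and 16.98 FPKM in dKO_1, against 16.3 FPKM in WT_0 and 15.5 FPKM in WT_1. The dKO libraries were the lowest and the highest of the 4, so the groups overlapped fully. The log2 difference was -0.10 (SE 0.143, 95% interval -0.49 to 0.29, limma adjusted p = 0.757), and it was 0.089 without dKO_0 and -0.29 without dKO_1.

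Dusp5 and Dusp6 encode phosphatases that act on ERK, Dusp5 in the nucleus and Dusp6 (MKP-3) in the cytoplasm, and both genes are known to be induced by ERK signalling. They lie on chromosome 19 (chr19:53529145-53541809, plus strand) and chromosome 10 (chr10:99263231-99267489, plus strand). Dusp5 had 47.0 FPKM in dKO_0 and 47.1 FPKM in dKO_1, against 39.0 FPKM in WT_0 and 46.2 FPKM in WT_1. The dKO libraries were almost equal and only just above WT_1. The log2 difference of Dusp5 was 0.15 (SE 0.0959, 95% interval -0.11 to 0.40, limma adjusted p = 0.497), and it was 0.027 without WT_0 and 0.26 without WT_1. Dusp6 had 18.1 FPKM in dKO_0 and 18.3 FPKM in dKO_1, against 16.3 FPKM in WT_0 and 14.8 FPKM in WT_1. Both dKO libraries exceeded both WT libraries, by a ratio of means of 1.17. The log2 difference of Dusp6 was 0.21 (SE 0.0743, 95% interval 0.013 to 0.41, limma adjusted p = 0.278), the highest of the 9 genes. The authors' deposited table gave Dusp6 a q of 0.967. An annotated gene, AC137853.2, overlaps Dusp5 on the opposite strand, and the strand setting of the counting is not given in the sources used here.

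Dusp10 encodes MKP-5, a phosphatase of JNK and p38. It lies on chromosome 1 (chr1:184034381-184075636, plus strand). Dusp10 had 13.5 FPKM in dKO_0 and 16.6 FPKM in dKO_1, against 13.4 FPKM in WT_0 and 17.1 FPKM in WT_1. Each group had 1 low and 1 high library, and the means of 15.1 ± 2.23 FPKM in dKO and 15.3 ± 2.61 FPKM in WT (SD, n = 2 each) differed by less than that spread. The log2 difference was -0.017 (95% interval -0.45 to 0.41, limma adjusted p = 0.967), and it lay between -0.18 and 0.15 with 1 library left out in turn.

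**Figure D2:**
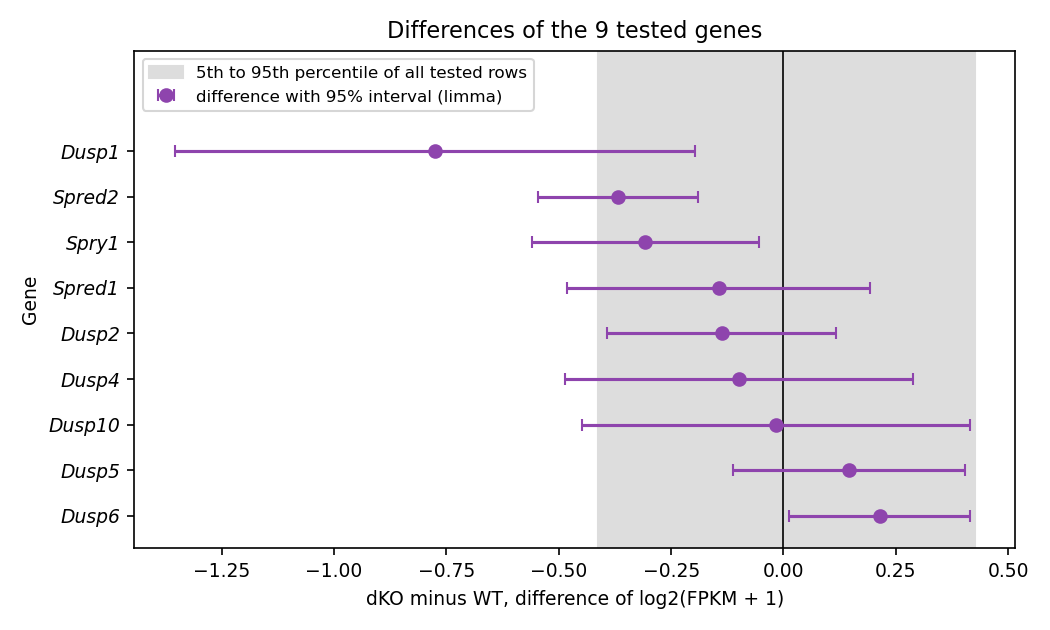
Differences of log2(FPKM + 1), dKO minus WT, for the 9 tested genes (points) with limma's 95% intervals (bars), over a grey band from the 5th to the 95th percentile of all rows tested (-0.41 to 0.43). Dusp1 lies outside the band at -0.78, the other 8 lie within it, and the intervals of 4 genes (Dusp1, Spred2, Spry1 and Dusp6) leave out 0. The intervals of Dusp1, Spry1 and Dusp6 each include 0 in some of the alternative fits, which are not shown here.

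Of the Sprouty genes, Spry1 encodes an inhibitor of receptor signalling to Ras and ERK that is also induced by antigen receptor signals in T cells. It lies on chromosome 3 (chr3:37639947-37644599, plus strand). Spry1 had 9.38 FPKM in dKO_0 and 10.8 FPKM in dKO_1, against 12.4 FPKM in WT_0 and 13.01 FPKM in WT_1. The groups did not overlap, and dKO was the lower. The means were 10.1 ± 1.03 FPKM in dKO and 12.7 ± 0.419 FPKM in WT (SD, n = 2 each), with a log2 difference of -0.31 (SE 0.0935, 95% interval -0.56 to -0.055, limma adjusted p = 0.243). With 1 library left out in turn, the difference lay between -0.40 and -0.21. An annotated gene, Gm42922, overlaps Spry1 on the opposite strand.

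Spry2, the best studied Sprouty gene in other tissues, was near the floor of the table. It lies on chromosome 14 (chr14:105891947-105896819, minus strand). Spry2 had 0.740 FPKM in dKO_0 and 0.907 FPKM in dKO_1, against 0.801 FPKM in WT_0 and 1.54 FPKM in WT_1. These values correspond to about 34 and 45 fragments in dKO and about 31 and 71 fragments in WT, estimated with the longest annotated coding transcript. The groups overlapped, and 1 library, WT_1, set the higher WT mean. With no filter on low values the log2 difference was -0.23 (95% interval -0.81 to 0.34, limma adjusted p = 0.687). The remaining Sprouty and Spred genes, Spry3, Spry4 and Spred3, stayed under the filter too, and Spry3 was listed at 0 in all 4 libraries.

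Spred1 and Spred2 encode membrane-bound inhibitors of the Ras to ERK route. Spred1 lies on chromosome 2 (chr2:117121071-117182279, plus strand) and Spred2 on chromosome 11 (chr11:19924442-20024026, plus strand). Spred1 had 3.60 FPKM in dKO_0 and 2.99 FPKM in dKO_1, against 3.50 FPKM in WT_0 and 3.98 FPKM in WT_1. The groups overlapped, with a log2 difference of -0.14 (SE 0.125, 95% interval -0.48 to 0.19, limma adjusted p = 0.599). The difference of Spred1 was -0.25 without dKO_0, -0.042 without dKO_1, -0.22 without WT_0 and -0.071 without WT_1. Spred2 had 8.997 FPKM in dKO_0 and 9.08 FPKM in dKO_1, against 11.9 FPKM in WT_0 and 12.0 FPKM in WT_1. Libraries within a group were nearly equal, and the groups were apart. The means of Spred2 were 9.04 ± 0.0574 FPKM in dKO and 12.0 ± 0.032 FPKM in WT (SD, n = 2 each), a decrease of the mean that came to -24.4%. The log2 difference was -0.37 (SE 0.0658, 95% interval -0.55 to -0.19, limma adjusted p = 0.142), the smallest adjusted p of the 9 genes. It lay between -0.37 and -0.36 with 1 library left out in turn. The authors' deposited table gave Spred2 a p of 0.0396 and a q of 0.467.

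**Figure D3:**
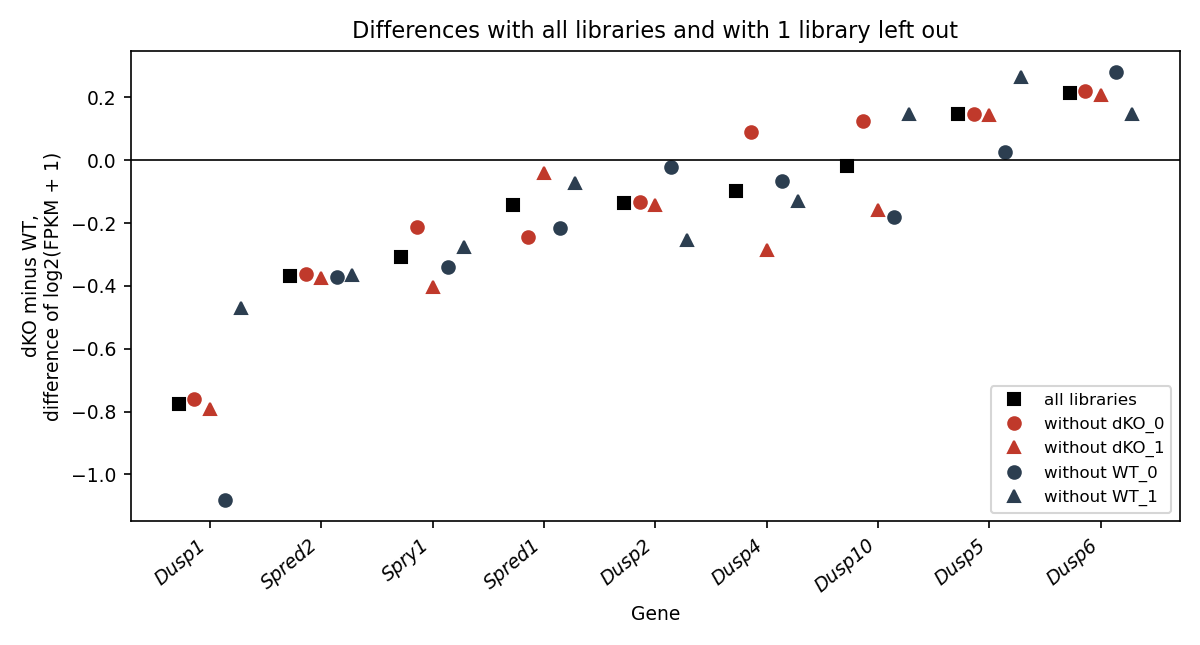
Difference of log2(FPKM + 1), dKO minus WT, for the 9 tested genes with all 4 libraries (black squares) and with dKO_0, dKO_1, WT_0 or WT_1 left out (red and dark symbols). Dusp1 ranges from -1.08 to -0.47 depending on the WT library, Spred2 hardly moves (-0.37 to -0.36), and Dusp4 and Dusp10 cross 0.

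Ordered by level, the dKO cells had Dusp2 first, then Dusp5, Dusp1, Dusp6, Dusp10, Dusp4, Spry1, Spred2, Spred1 and Spry2. In that order the library ranges of neighbours overlapped for 1 pair, Dusp10 and Dusp4. In WT cells the order was Dusp2, Dusp1, Dusp5, Dusp4, Dusp6, Dusp10, Spry1, Spred2, Spred1 and Spry2, and the ranges overlapped for Dusp4 with Dusp6 and for Dusp6 with Dusp10. Dusp1 thus stood below Dusp5 in both dKO libraries and above it in both WT libraries, by 46.5 against 39.0 FPKM in WT_0 and 71.5 against 46.2 FPKM in WT_1. The most abundant gene of the other families, Spry1, had 10.1 FPKM in dKO and 12.7 FPKM in WT, below all 6 Dusp genes in both groups.

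WT_1 held the highest value of 6 of the 10 genes, and dKO_0 the lowest value of 6, with Spry2, near the floor, counted in both. The same shares over all rows were not computed, so these counts do not show a trait particular to the 10 genes. The profile across the 4 libraries most like that of Dusp1, by root mean square distance of centred log2 values over 11369 other rows, belonged to Il17rb (0.0475), Ankrd55 (0.0537) and Tnfsf9 (0.0742). Tnfsf9, the gene of the 4-1BB ligand, had 11.1 and 9.74 FPKM in dKO, against 14.2 and 22.5 FPKM in WT_0 and WT_1. The profiles most like that of Dusp6 were those of Hmox2 (0.00312), Tubb5 (0.00665) and Manf (0.00775). With 4 libraries such likeness is a description and many rows share a profile.

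Among other phosphatases of the classical MAP kinase family, Dusp7 and Dusp16 entered the test. Dusp7, of an ERK phosphatase, had 37.8 and 36.0 FPKM in dKO, against 36.0 and 37.1 FPKM in WT (log2 difference 0.012, limma adjusted p = 0.933). Dusp16 had 3.24 and 2.51 FPKM in dKO, against 2.68 and 3.48 FPKM in WT (log2 difference -0.074, adjusted p = 0.845), so both overlapped between groups. Of 10 tested atypical dual-specificity phosphatase genes, 5 were higher and 5 lower, limma called 0 and the median log2 difference was -0.0065. The largest differences in that list were those of Dusp3, with 1.54 and 1.12 FPKM in dKO, against 1.996 and 1.87 FPKM in WT (-0.34, adjusted p = 0.348), and Dusp12 (-0.20, adjusted p = 0.590).

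Limma called none of the tested genes of the routes that the 10 genes restrain. Of 26 tested genes from Ras activation to ERK, limma called 0, and an unadjusted p under 0.05 was reached by 2 higher and 0 lower genes, beside 9.64% higher and 7.08% lower among all rows. Their median log2 difference was 0.048. Rras2, of a Ras-related GTPase, had 30.7 and 27.9 FPKM in dKO, against 18.9 and 20.3 FPKM in WT (log2 difference 0.56, limma adjusted p = 0.113, and a q of 0.0276 in the authors' deposited table, whose lists do not hold it), and Rasgrp3 had a log2 difference of 0.38 (adjusted p = 0.471). Of 12 tested Ras GTPase-activating proteins and other inhibitors, limma called 0, and an unadjusted p under 0.05 was reached by 2 higher and 2 lower genes, beside the same shares of all rows. Dab2ip had 0.979 and 1.31 FPKM in dKO, against 2.30 and 1.95 FPKM in WT (log2 difference -0.54, limma adjusted p = 0.216). Dok1, an adaptor that recruits a Ras GTPase-activating protein, had 42.8 and 45.1 FPKM in dKO, against 30.7 and 30.1 FPKM in WT (log2 difference 0.52, limma adjusted p = 0.0876).

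Of 19 tested p38 and JNK pathway kinases, 6 were higher and 13 lower, limma called 0, and the median log2 difference was -0.099. At an unadjusted p under 0.05, 1 was higher and 3 lower, beside 9.64% and 7.08% of all rows. The authors' deposited lists held 1 of them, Mapk11, as lower. Mapk11, of p38 beta, had 12.9 and 13.7 FPKM in dKO, against 20.6 and 20.0 FPKM in WT (log2 difference -0.58, limma adjusted p = 0.0891, and a q of 0.0368 in the authors' deposited table).

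The list of immediate early genes that respond to ERK had 18 tested members, 15 lower and 3 higher in dKO (47.2% of all rows were lower). Their median log2 difference was -0.20, where the 9 tested phosphatase, Sprouty and Spred genes had -0.14 and all rows 0.012. These lists were chosen with earlier results of these data known, and ERK activity was not measured. Limma called 0, and an unadjusted p under 0.05 was reached by 6 lower and 0 higher genes, beside 7.08% lower and 9.64% higher among all rows. The authors' deposited lists held 1, Phlda1, as lower. Phlda1 had 7.42 and 6.82 FPKM in dKO, against 9.82 and 19.0 FPKM in WT_0 and WT_1 (log2 difference -0.86, limma adjusted p = 0.290), and like Dusp1 it was highest in WT_1.

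**Figure D4:**
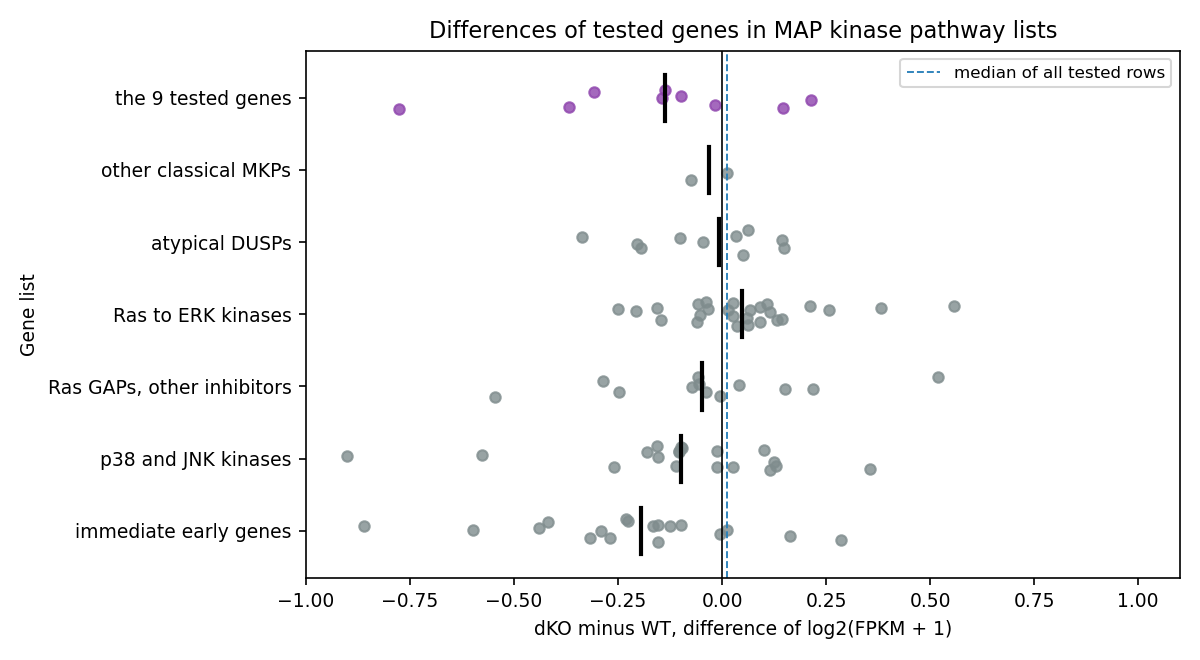
Difference of log2(FPKM + 1), dKO minus WT, for the 9 tested phosphatase, Sprouty and Spred genes and each tested gene of 6 pathway lists (points). The list median (black bar) and the median of all rows tested (dashed line, 0.012) are shown. The immediate early genes have the lowest median, -0.20, the 9 tested phosphatase, Sprouty and Spred genes -0.14 and the Ras to ERK list 0.048. Limma called 0 of the genes shown.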

How the data were processed

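Per the submitters' processing notes, the authors used FastQC, TopHat2 2.1.0 and Cuffdiff 2.2.1 with mouse build mm10. Annotation, strand setting and read filters: not given in the sources used here. Deposited values are FPKM per library and per group, and the authors' log2 fold changes, p-values and q-values. Columns were tied to groups by name. Here log2(FPKM + 1) was tested by limma 3.58.1 (R 4.3.3, trended eBayes after lmFit, two-sided, without pairing) on rows that reached 1 FPKM in 2 or more libraries, with Benjamini-Hochberg adjustment over all of them and calls at an adjusted p under 0.05. On this scale changes of low genes are understated. There were 2 residual and 2.31 prior degrees of freedom. An exact permutation test of 2 against 2 libraries cannot go below p = 0.333 and was not used. The limma step was run on simulated data. There, genes of like level were given the same spread, and the planted differences were larger than that of any member tested. The simulation therefore does not show the power to call differences of the size seen here.

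Depth was estimated from genes with 1 annotated transcript whose FPKM, taken as 1 fragment, gave a depth inside a range set in advance. The median depth could not fall outside that range, so fragment numbers are approximate and cover counting only. The members and lists were chosen with earlier results of these data known. Named genes are the 10 members, the genes nearest in profile to the members with the largest difference in each direction, the genes that check the labels, and, per pathway list, the genes on the authors' lists or else the 2 with the largest difference. Gene positions and promoters come from RefSeq and overlapping genes from GENCODE, both on GRCm38, the assembly of mm10. Protein sequences were not used here. The lists for dendritic, erythroid and CD8 T cells were also measured: by group mean they summed to 161, 34.3 and 9.96 FPKM in dKO, and to 150.3, 38.6 and 8.32 FPKM in WT, with limma calling 0 of their genes.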

Additional observations from a re-analysis of the deposited data

How the results depend on the processing

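Limma called 0 of those of the 10 genes that it tested (8 to 10, depending on the filter) in 12 of 13 alternatives. The exception was the fit without WT_0, with 1 gene called (Dusp1, log2 difference -1.08), so the count lay between 0 and 1 over the fits that leave out a library. The sign of the difference was kept in 113 of 116 comparisons, and 3 reversed: Dusp4 without dKO_0 (0.089), Dusp10 without dKO_0 (0.12) and Dusp10 without WT_1 (0.15); the cause was not tested. With a library left out, Dusp4 lay between -0.29 and 0.089 and Dusp10 between -0.18 and 0.15. Over all rows the calls numbered 40, against 16 with no filter on low values, 186 with small RNA rows left out, and 2 to 217 with a library left out. Leaving out dKO_0 or dKO_1 gave 2 calls each, WT_0 177 and WT_1 217. With the column suffix as a replicate block there were 7 calls, 0 of them among the 10 genes; same-suffix libraries deviated with a correlation of -0.11 over genes, and the crossed pairing, added after seeing the data, gave 22. The suffixes are not known to pair libraries. Median centring moved the differences by -0.02. In the main fit, 4 genes reached an unadjusted limma p under 0.05. The count was also 4 with a pseudocount of 0.1, no filter, a filter at 5 FPKM or small RNA rows left out. It was 3 with quantile normalization, median centring, no intensity trend, or the column suffix as a block, straight or crossed. In those fits with 3 genes, limma's interval for Dusp6 included 0. These counts cover only the fits that keep all libraries, so they do not show that the number is stable. Without dKO_0, and also without dKO_1, limma's intervals for both Dusp1 and Dusp6 included 0. For Spry2, about 31 to 71 fragments per library limit what can be seen.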

Other observations

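Mapk12, of p38 gamma, and Mapk11 are neighbours on chromosome 15 with 904 bases and 0 annotated genes between them (RefSeq, GRCm38). Mapk12, singled out after its values were seen, had 0.992 and 0.859 FPKM in dKO, against 2.54 and 2.65 FPKM in WT (log2 difference -0.90, limma adjusted p = 0.107). Both dKO values of Mapk12 were under the filter of 1 FPKM, so it entered the test through its higher WT values alone. Its p-value is therefore given as description only. For both Mapk11 and Mapk12 the groups did not overlap, with dKO the lower, as for 23.4% of all rows tested. Dusp9, a MAP kinase phosphatase gene also singled out after its values were seen, stayed under the filter with 0.797 and 0.938 FPKM in dKO, against 0.331 and 0.355 FPKM in WT. Limma did not call Mapk12, and Dusp9 was not tested. The authors' deposited table gave Dusp9 a log2 fold change of 1.34 with a q of 0.316.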
